A study of Mus musculus with 10 samples.

Results

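Fatty acid oxidation and ketone body handling were followed through 40 genes in a deposited table of 56748 genes from mouse liver and liver tumours. The genes were a chosen panel of enzymes, transporters and their partners, and each of the 40 symbols occurred once in the table. By the known location of their proteins 20 are mitochondrial, 13 are peroxisomal and 7 act in the cytosol or in more than 1 compartment. RNA was sequenced from 10 libraries: 4 of normal liver of FVB mice, 3 of Akt/Nras tumours, driven by Akt plus Nras, and 3 of Akt/Nras/Foxo1AAA tumours, driven by the same genes plus Foxo1AAA. All mice were labelled wild type; the injected genes, delivered to hepatocytes by hydrodynamic tail vein injection of DNA, separate the tumour groups from normal liver. Foxo1AAA is a form of the transcription factor FOXO1 that the kinase AKT cannot inhibit, and by the labels it is what sets the tumour groups apart. The tumours model hepatocellular carcinoma. The sources used here do not give the age or sex of the mice, the time of collection, or whether normal livers were injected. Nothing in the labels ties each library to a separate mouse; the p-values thus rest on library-to-library spread, which may be technical.

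Beta-oxidation shortens a fatty acid by repeated rounds of dehydrogenation, hydration, a second dehydrogenation and thiolytic cleavage. Mitochondria take up most fatty acids through the carnitine shuttle and pass electrons to the respiratory chain. Peroxisomes start on very long, branched and dicarboxylic chains and on bile acid precursors, and hand on the shortened products. In liver, acetyl-CoA from beta-oxidation is made into ketone bodies during fasting, and AKT, an arm of insulin signalling, and FOXO1, which it restrains, act on opposite sides of the fed and fasted states.

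The libraries held 13.6 to 21.3 M reads recovered from the FPKM values (fragments per kilobase of gene model, scaled by a factor per library). That factor did not follow the recovered reads alone. A read over 1 kb stood for 0.0854 FPKM in normal liver 1, with 17.5 M reads, and for 0.0608 FPKM in Akt/Nras 1, with 16.2 M. How the factor was set is not given in the sources used here. Summed FPKM ran from 692009.9 to 743202.8 in normal liver, from 349618.6 to 381653.1 in Akt/Nras tumours and from 413812.4 to 444893 in Akt/Nras/Foxo1AAA tumours, so directions of small changes depend on how libraries are scaled. Foxo1 stood at 77.9 to 125 FPKM in Akt/Nras/Foxo1AAA tumours and at 5.37 to 8.02 FPKM in the other libraries; which species' coding sequences were injected is not stated, so Foxo1, Akt1 and Nras values do not separate injected from endogenous mRNA. Each of 7 measured hepatocyte markers was lower in both tumour groups than in normal liver (limma, adjusted p under 0.05), whereas with libraries scaled to the same FPKM total 3 were lower in each, and 2 were higher in Akt/Nras/Foxo1AAA tumours. Their summed level was 66500 to 70600 FPKM in normal liver, 24800 to 27500 FPKM in Akt/Nras tumours and 29400 to 41000 FPKM in Akt/Nras/Foxo1AAA tumours. Reads of mitochondrially encoded genes made up 5.59 to 7.93% of the reads in normal liver and 2.18 to 3.48% in the tumours. These are whole pieces of tissue, in which fewer hepatocytes and less RNA per hepatocyte cannot be told apart.

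Most of the pathway was lower in both kinds of tumour. In Akt/Nras tumours 35 of the 40 genes fell and 1 rose against normal liver (limma on log2(FPKM + 1), called at an adjusted p under 0.05), whereas 37.9% of all 12439 tested genes fell and 31.1% rose. In Akt/Nras/Foxo1AAA tumours 35 fell and 1 rose, beside 36.5% and 26.8% of all tested genes. The median log2 change of the 40 was -1.61 and -1.27, and that of all tested genes -0.07 and -0.09. The fall was shared by the compartments in Akt/Nras tumours, with 19 of 20 mitochondrial, 11 of 13 peroxisomal and 5 of 7 other genes called lower and medians of -1.51, -1.68 and -1.89. In Akt/Nras/Foxo1AAA tumours the same counts were 19, 10 and 6, with medians of -1.25, -1.41 and -1.19. The gene that rose in both groups was Acot2. Of the 40, 34 were called lower in both, a count not made over all tested genes. Both comparisons used the same normal livers. All 40 passed the minimum for testing, 1 FPKM or more in 3 or more libraries.

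**Figure D1:**
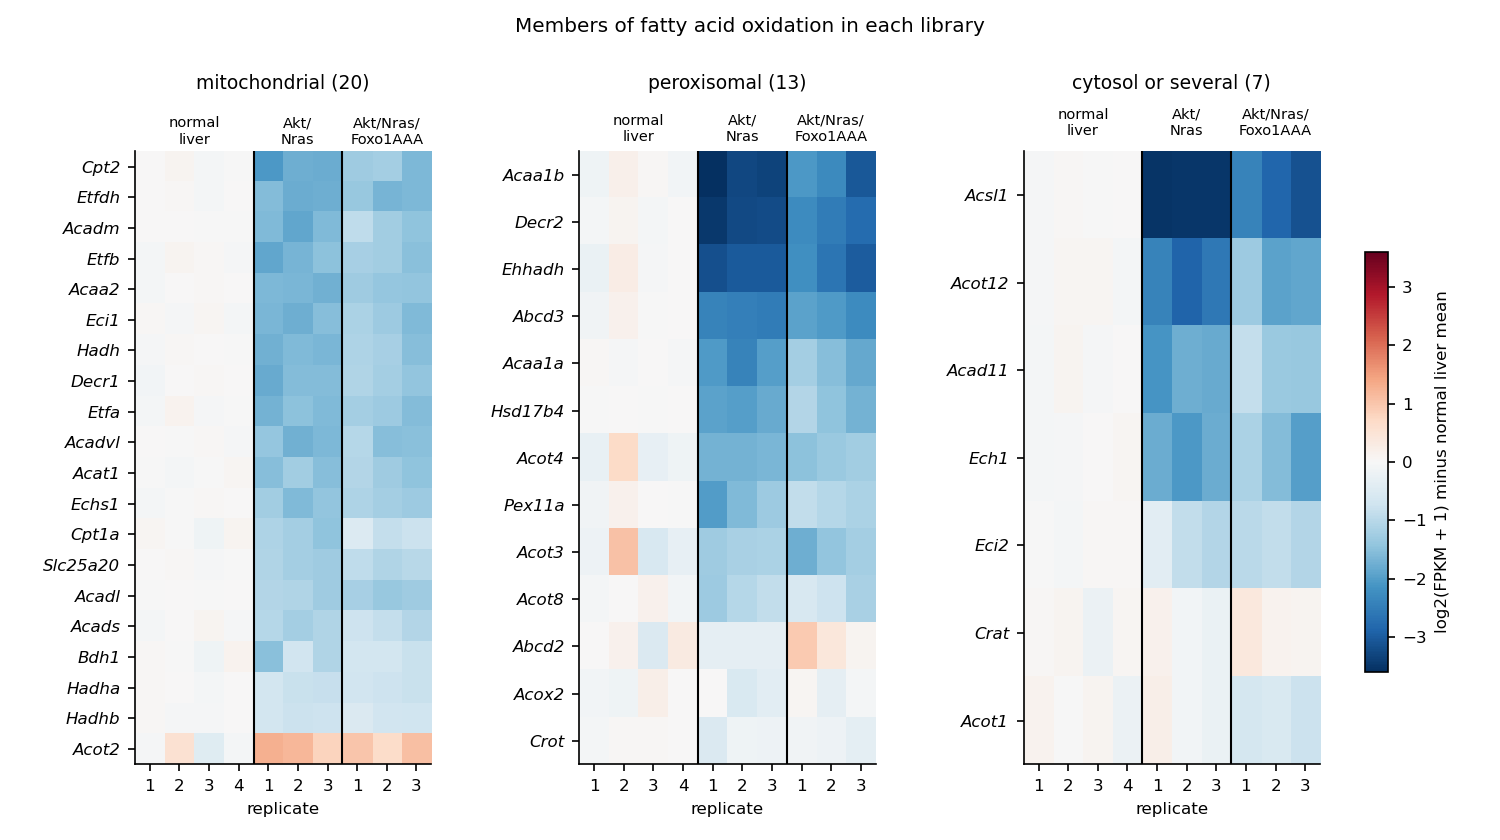
Log2(FPKM + 1) of each of the 40 genes minus its mean in normal liver, for every library (columns, by replicate) and gene (rows, by compartment). Blue is lower and red higher than normal liver; the darkest rows are Acsl1, Acaa1b, Decr2 and Ehhadh, and Acot2 is red in all 6 tumour libraries.

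A rescaling that gives all libraries 1 common FPKM sum (equal totals) moved the median of all genes from -0.07 to 0.70 in Akt/Nras tumours, from -0.09 to 0.47 in Akt/Nras/Foxo1AAA tumours and from -0.01 to -0.21 between the tumour groups. On that scale 26 of the 40 were called lower and 7 higher in Akt/Nras tumours, where 13.8% of all genes were lower and 69.2% higher. In Akt/Nras/Foxo1AAA tumours 27 were lower and 5 higher, beside 13.5% and 61.0%. This rescaling shifts all genes of a library nearly alike, so positions relative to the median of all genes could hardly move. Of the 40, 37 lay below that median in Akt/Nras tumours under both scalings. In Akt/Nras/Foxo1AAA tumours 37 did on the deposited scale and 35 with equal totals.

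Activation and import came first in the pathway and held the gene that fell most. Acsl1, the main long-chain acyl-CoA synthetase of liver, activates fatty acids by joining them to coenzyme A. In normal liver Acsl1 stood at 129, 135, 131 and 132 FPKM, in Akt/Nras tumours at 10.6, 10.7 and 10.7 FPKM and in Akt/Nras/Foxo1AAA tumours at 24.0, 17.4 and 14.1 FPKM. The groups did not overlap, and replicates of normal liver and of Akt/Nras tumours lay close together. Acsl1 was 12.4-fold lower in Akt/Nras tumours (log2 change -3.51, SE 0.14, adjusted p = 1.56e-08) and 7.13-fold lower in Akt/Nras/Foxo1AAA tumours (-2.80, SE 0.14, adjusted p = 1.03e-07).

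Cpt1a, the outer-membrane carnitine palmitoyltransferase that limits entry of long chains into mitochondria, fell less. Its normal livers stood at 54.9, 52.1, 46.5 and 56.2 FPKM, its Akt/Nras tumours at 23.6, 21.7 and 18.4 FPKM and its Akt/Nras/Foxo1AAA tumours at 36.8, 28.5 and 29.9 FPKM. These groups formed 3 separate steps with no overlap. The log2 change of Cpt1a was -1.27 (SE 0.12, adjusted p = 3.6e-06) in Akt/Nras tumours and -0.71 (SE 0.12, adjusted p = 0.000339) in Akt/Nras/Foxo1AAA tumours, and the second went to 0 with equal totals (adjusted p = 0.974). Cpt2, the inner-membrane partner that returns the chain to coenzyme A, was the most abundant gene of the shuttle. Cpt2 stood at 89.5, 94.6, 84.6 and 88.2 FPKM in normal liver, at 20.5, 25.9 and 25.1 FPKM in Akt/Nras tumours and at 36.2, 37.8 and 28.6 FPKM in Akt/Nras/Foxo1AAA tumours. Its groups did not overlap either, and it fell 3.75-fold and 2.61-fold (adjusted p = 1.91e-07 and 2.73e-06). Slc25a20, the carrier that exchanges acylcarnitine for carnitine across the inner membrane, fell from 28.4 ± 0.777 FPKM (SD, n = 4) to 11.8 ± 0.971 and 13.7 ± 0.781 FPKM (SD, n = 3 each).

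The mitochondrial acyl-CoA dehydrogenases, which open each round of oxidation and differ by chain length, fell by 1.85-fold to 3.26-fold. Acadl, the long-chain enzyme, was the most abundant of them in normal liver. It stood at 157, 161, 156 and 159 FPKM there, at 75.9, 73.7 and 64.5 FPKM in Akt/Nras tumours and at 67.9, 61.3 and 64.7 FPKM in Akt/Nras/Foxo1AAA tumours. Normal livers lay far above the tumours, and the tumour groups overlapped. The log2 change of Acadl was -1.14 (SE 0.08, adjusted p = 4.76e-07) and -1.28 (SE 0.08, adjusted p = 4.16e-07). With equal totals its call in Akt/Nras tumours was lost (-0.18, adjusted p = 0.103). Acadvl, for very long chains, fell from 110 ± 2.51 FPKM (SD, n = 4) to 36.2 ± 4.6 and 43.1 ± 9.53 FPKM (SD, n = 3 each), and Acadm, for medium chains, from 129 ± 2.17 to 39.5 ± 4.26 and 55.9 ± 10.6 FPKM. The short-chain enzyme Acads fell least, from 133 ± 6.61 to 61.5 ± 4.67 and 72.1 ± 7.65 FPKM, and was not called with equal totals (log2 change -0.15, adjusted p = 0.116, and -0.17, adjusted p = 0.0822). Acad11, a further acyl-CoA dehydrogenase counted here outside the mitochondrial set, fell 4.04-fold in Akt/Nras tumours and 2.34-fold in Akt/Nras/Foxo1AAA tumours.

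The later steps of the mitochondrial spiral split into a group that fell about as far as the pathway and a pair that fell less. Acaa2, the mitochondrial 3-ketoacyl-CoA thiolase that cleaves off acetyl-CoA, was the most abundant of all 40 genes per length of gene model. Acaa2 stood at 1090, 1140, 1170 and 1150 FPKM in normal liver, at 368, 362 and 340 FPKM in Akt/Nras tumours and at 472, 436 and 422 FPKM in Akt/Nras/Foxo1AAA tumours. The groups did not overlap. It was 3.19-fold lower in Akt/Nras tumours (log2 change -1.67, SE 0.08, adjusted p = 5.54e-08) and 2.57-fold lower in Akt/Nras/Foxo1AAA tumours (-1.36, SE 0.08, adjusted p = 3.81e-07). Hadh, the short-chain 3-hydroxyacyl-CoA dehydrogenase, fell 3.19-fold and 2.44-fold, and Echs1, the short-chain enoyl-CoA hydratase, 2.73-fold and 2.38-fold. Hadha and Hadhb encode the alpha and beta subunits of the trifunctional protein, which carries out the same steps on long chains. Hadha stood at 55.9 to 59.5 FPKM in normal liver, at 32.5 to 36.5 FPKM in Akt/Nras tumours and at 32.7 to 35.6 FPKM in Akt/Nras/Foxo1AAA tumours. Hadhb stood at 35.8 to 38.3, 21.3 to 23.1 and 22.1 to 25.6 FPKM in the same order. For both, the tumour groups overlapped and lay below normal liver. Their log2 changes in Akt/Nras tumours, -0.76 and -0.72 (SE 0.07 and 0.08, adjusted p = 4.37e-06 and 1e-05), turned to 0.19 and 0.22 with equal totals. In Akt/Nras/Foxo1AAA tumours the changes were -0.75 and -0.63 on the deposited scale, and Hadhb turned to 0.06 with equal totals while the call of Hadha was lost (-0.04, adjusted p = 0.654).

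Hadha and Hadhb lie head to head, and the stretch between their RefSeq start sites is shown because the subunit genes share it. Both moved by near-equal amounts, and whether the shared stretch bears on that was not tested. The stretch spans 272 bases, chr5:30154981-30155252 on GRCm38.p6, and reads away from Hadha and towards Hadhb on the plus strand. GC makes up 60.3% of it, and the capitals mark its 18 CpG dinucleotides.
Hadha to Hadhb: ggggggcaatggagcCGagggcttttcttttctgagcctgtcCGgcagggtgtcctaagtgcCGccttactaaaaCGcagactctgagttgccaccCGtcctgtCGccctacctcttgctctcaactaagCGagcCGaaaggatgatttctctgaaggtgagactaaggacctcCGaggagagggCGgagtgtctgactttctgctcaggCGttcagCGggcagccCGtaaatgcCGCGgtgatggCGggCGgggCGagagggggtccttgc

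Electron transfer flavoprotein carries electrons from the dehydrogenases to the respiratory chain. Etfa, its alpha subunit, was the most abundant of the group. It stood at 252, 285, 257 and 259 FPKM in normal liver, at 80.6, 93.0 and 87.3 FPKM in Akt/Nras tumours and at 111, 105 and 89.2 FPKM in Akt/Nras/Foxo1AAA tumours. All tumour libraries were below normal liver, and the tumour groups overlapped. Etfa fell 3.03-fold and 2.59-fold (log2 change -1.59 and -1.37, SE 0.10 each, adjusted p = 2.02e-07 and 9.79e-07). The beta subunit gene Etfb fell 3.25-fold and 2.52-fold. Etfdh, the dehydrogenase that passes the electrons on to ubiquinone, fell 3.43-fold and 3.08-fold.

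Auxiliary enzymes let unsaturated chains enter the spiral by moving or reducing double bonds. Ech1, the dienoyl-CoA isomerase found in mitochondria and peroxisomes, was the most abundant of them. Ech1 stood at 182, 183, 193 and 200 FPKM in normal liver, at 53.7, 44.0 and 53.8 FPKM in Akt/Nras tumours and at 85.2, 64.1 and 47.1 FPKM in Akt/Nras/Foxo1AAA tumours. Normal liver lay apart, and the Akt/Nras/Foxo1AAA libraries spread widely enough to overlap the Akt/Nras ones. It fell 3.75-fold (log2 change -1.89, SE 0.17, adjusted p = 2.69e-06) and 2.89-fold (-1.56, SE 0.17, adjusted p = 1.71e-05). Eci1, the mitochondrial enoyl-CoA isomerase, and Decr1, the mitochondrial dienoyl-CoA reductase, fell 3.23-fold and 3.21-fold in Akt/Nras tumours and 2.56-fold and 2.40-fold in Akt/Nras/Foxo1AAA tumours. Eci2, an isomerase of both organelles, fell from 56.6 ± 2.39 FPKM (SD, n = 4) to 33.3 ± 8.96 and 28.3 ± 1.54 FPKM (SD, n = 3 each). Its log2 change in Akt/Nras tumours, -0.78, turned to 0.17 with equal totals, and the call in Akt/Nras/Foxo1AAA tumours was lost (-0.27, adjusted p = 0.122).

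Of the 40 genes, 2 handle ketone bodies. Bdh1, the 3-hydroxybutyrate dehydrogenase that interconverts acetoacetate and 3-hydroxybutyrate, stood at 143, 138, 125 and 154 FPKM in normal liver, at 48.8, 86.8 and 65.6 FPKM in Akt/Nras tumours and at 88.2, 87.6 and 79.7 FPKM in Akt/Nras/Foxo1AAA tumours. Akt/Nras libraries spread most, and all 6 tumour libraries were below normal liver. Bdh1 fell 2.09-fold (log2 change -1.09, SE 0.16, adjusted p = 0.00014) and 1.65-fold (-0.71, SE 0.16, adjusted p = 0.00299). With equal totals the first was not called (-0.12, adjusted p = 0.512) and the second turned to 0.01. Acat1, the mitochondrial acetoacetyl-CoA thiolase at the start of ketone body synthesis, fell 2.72-fold and 2.42-fold (adjusted p = 9.05e-07 and 3.55e-06).

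Of the 4 largest decreases in log2(FPKM + 1) in each tumour group, 3 were of peroxisomal genes. Acaa1b, a peroxisomal 3-ketoacyl-CoA thiolase, was the most abundant of them. In normal liver Acaa1b stood at 690, 873, 789 and 715 FPKM, in Akt/Nras tumours at 54.0, 77.4 and 75.6 FPKM and in Akt/Nras/Foxo1AAA tumours at 183, 155 and 91.3 FPKM. No group overlapped another. It fell 11.1-fold (log2 change -3.47, SE 0.22, adjusted p = 2.66e-07) and 5.36-fold (-2.47, SE 0.22, adjusted p = 4.72e-06). Acaa1a, the other copy, encodes the same step and fell less, from 143 ± 3.97 FPKM (SD, n = 4) to 31.8 ± 4.84 FPKM (4.50-fold) and 49.6 ± 11.1 FPKM (2.88-fold; SD, n = 3 each). The coding sequences of Acaa1a and Acaa1b are 96.5% identical over 1275 bases in the GENCODE M21 transcripts, and 34.0% of the 50-base windows of Acaa1a also occur in Acaa1b. Values of either gene are therefore uncertain where reads could be assigned to the other copy.

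The 250 bases before the RefSeq start of each copy are shown because the copies, near-identical in their coding sequence, differ there in GC and CpG content. Both are on GRCm38.p6, chr9:119341044-119341293 on the plus strand for Acaa1a and chr9:119157094-119157343 on the minus strand for Acaa1b. The capitals mark CpG dinucleotides, of which the Acaa1a stretch holds 10 and the Acaa1b stretch 2, with a GC content of 53.6% and 41.6%.
Acaa1a: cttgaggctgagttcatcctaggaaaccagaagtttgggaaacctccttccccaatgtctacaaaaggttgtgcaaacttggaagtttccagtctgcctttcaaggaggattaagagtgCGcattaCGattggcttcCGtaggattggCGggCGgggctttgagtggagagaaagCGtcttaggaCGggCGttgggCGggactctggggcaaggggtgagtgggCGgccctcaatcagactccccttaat
Acaa1b: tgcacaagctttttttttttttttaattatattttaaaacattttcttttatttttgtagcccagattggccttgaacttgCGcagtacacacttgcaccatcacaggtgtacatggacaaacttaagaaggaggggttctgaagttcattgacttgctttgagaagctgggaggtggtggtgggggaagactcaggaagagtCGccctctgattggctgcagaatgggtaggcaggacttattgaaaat

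Decr2, the peroxisomal dienoyl-CoA reductase, stood at 138, 153, 138 and 146 FPKM in normal liver, at 12.1, 14.2 and 14.4 FPKM in Akt/Nras tumours and at 29.2, 24.5 and 20.4 FPKM in Akt/Nras/Foxo1AAA tumours. Its 3 groups were separate, with tight replicates. It fell 10.6-fold (log2 change -3.31, SE 0.11, adjusted p = 8.2e-09) and 5.83-fold (-2.51, SE 0.11, adjusted p = 6.75e-08). Its mitochondrial counterpart Decr1 fell 3.21-fold and 2.40-fold. Ehhadh, the L-bifunctional enzyme that hydrates and dehydrogenates chains such as dicarboxylic acids, stood at 94.4, 135, 107 and 112 FPKM in normal liver, at 11.5, 12.8 and 12.9 FPKM in Akt/Nras tumours and at 23.3, 17.1 and 13.1 FPKM in Akt/Nras/Foxo1AAA tumours. Ehhadh fell 9.01-fold (log2 change -3.06, SE 0.17, adjusted p = 1.15e-07) and 6.28-fold (-2.61, SE 0.17, adjusted p = 6.04e-07). Hsd17b4, the D-bifunctional enzyme of branched chains and bile acid precursors, catalyses the parallel steps and fell 3.79-fold and 2.63-fold. Abcd3, a transporter that brings acyl-CoA into peroxisomes, fell from 110 ± 8.87 FPKM (SD, n = 4) to 19.1 ± 0.746 and 25.3 ± 3.25 FPKM (SD, n = 3 each). Pex11a, a membrane protein of peroxisome division, fell 3.30-fold and 2.10-fold.

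Of the peroxisomal genes not called against normal liver, Acox2, the oxidase of branched chains and bile acid intermediates, stood at 46.4 to 59.7 FPKM in normal liver, at 34.7 to 51.4 FPKM in Akt/Nras tumours and at 40.8 to 53.8 FPKM in Akt/Nras/Foxo1AAA tumours. All 3 groups overlapped, and the intervals of its log2 change were -0.64 to 0.01 and -0.43 to 0.22 (95%). With equal totals Acox2 was called higher in both tumour groups (0.64 and 0.60), whereas with libraries weighted by their fit it was called lower in both (-0.39 and -0.27, adjusted p = 0.015 and 0.0369). It was also called lower in Akt/Nras tumours without Akt/Nras replicate 1 (-0.47, adjusted p = 0.0118). Abcd2, a minor transporter of very long chains in liver, had 95% intervals of -0.81 to 0.16 and 0 to 0.97. Abcd2 was called higher in Akt/Nras/Foxo1AAA tumours than in normal liver with equal totals (1.04, adjusted p = 0.000915), median-of-ratios scaling (adjusted p = 0.0465), library weights (0.0485) and the replicate block (0.023), and without normal liver 4 (0.0413) or Akt/Nras/Foxo1AAA replicate 3 (0.0247). In Akt/Nras tumours it was called lower without normal liver 3 (-0.49, adjusted p = 0.0416). Crot, which makes medium-chain carnitine esters for export from peroxisomes, was 1.21-fold lower in Akt/Nras tumours (log2 change -0.28, SE 0.10, adjusted p = 0.0291), a call lost without any 1 of 4 libraries: normal liver 2, 3 or 4 (adjusted p of 0.0596, 0.0616 and 0.0593) or Akt/Nras 1 (0.109). Median-of-ratios scaling and the replicate block also ended it (adjusted p = 0.0735 and 0.0806). With equal totals Crot was called higher in both groups (0.67 and 0.48). On the deposited scale its change in Akt/Nras/Foxo1AAA tumours, -0.22 (SE 0.10, adjusted p = 0.0762), did not pass, but was called lower with library weights (adjusted p = 0.0185), with the compared groups alone (0.0289) and without Akt/Nras 1 (0.0213). Crat, the carnitine acetyltransferase of mitochondria and peroxisomes, stood at 9.09 ± 0.914, 8.80 ± 1.4 and 10.6 ± 1.27 FPKM (SD, n = 4, 3 and 3) and did not pass against normal liver (adjusted p = 0.736 and 0.171). With equal totals Crat was called higher in both (0.83 and 0.85).

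**Figure D2:**
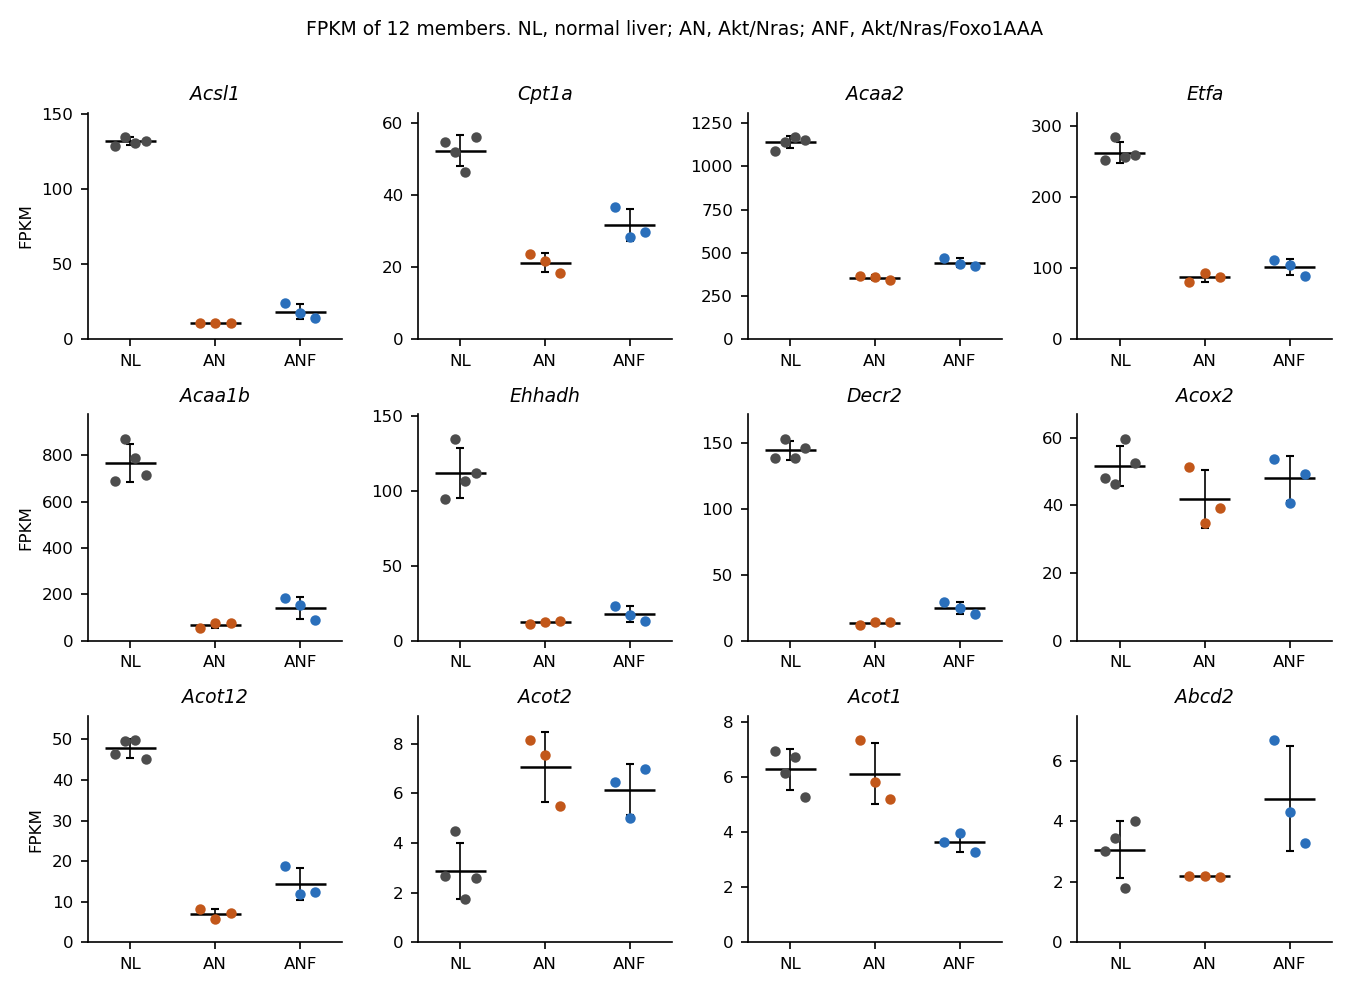
FPKM of 12 of the genes in each library (points), with the mean (line) and SD (bar) per group; every vertical axis starts at 0. Acsl1, Acaa1b, Ehhadh and Decr2 drop to a small part of their normal level, Acox2 overlaps in all groups, and Acot2 is higher in the tumours.

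Thioesterases hydrolyse acyl-CoA back to the free acid, and moved apart from each other. Acot12, the cytosolic acetyl-CoA hydrolase, was the most abundant thioesterase of the 40 genes in normal liver. It stood at 46.4, 49.7, 49.8 and 45.2 FPKM in normal liver, at 8.12, 5.65 and 7.18 FPKM in Akt/Nras tumours and at 18.8, 11.9 and 12.4 FPKM in Akt/Nras/Foxo1AAA tumours. The 3 groups were separate. Acot12 fell 6.84-fold (log2 change -2.62, SE 0.15, adjusted p = 1.54e-07) and 3.32-fold (-1.69, SE 0.15, adjusted p = 5.34e-06). Acot2, the mitochondrial long-chain enzyme, was the gene that rose. Its values were 2.68, 4.47, 1.76 and 2.58 FPKM in normal liver, 8.14, 7.56 and 5.49 FPKM in Akt/Nras tumours and 6.45, 4.99 and 6.98 FPKM in Akt/Nras/Foxo1AAA tumours. All tumour libraries lay above normal liver. Acot2 rose 2.46-fold (log2 change 1.09, SE 0.21, adjusted p = 0.000921) and 2.14-fold (0.92, SE 0.21, adjusted p = 0.00323).

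Acot1, the cytosolic enzyme next to Acot2, stood at 6.95, 6.17, 6.75 and 5.30 FPKM in normal liver, at 7.35, 5.84 and 5.21 FPKM in Akt/Nras tumours and at 3.65, 3.98 and 3.29 FPKM in Akt/Nras/Foxo1AAA tumours. The Akt/Nras/Foxo1AAA libraries lay below all others, and normal liver and Akt/Nras tumours overlapped. Its log2 change was -0.04 (95% interval -0.30 to 0.23, adjusted p = 0.796) in Akt/Nras tumours, 0.80 there with equal totals, and -0.65 (SE 0.12, adjusted p = 0.000748) in Akt/Nras/Foxo1AAA tumours, -0.05 there with equal totals (adjusted p = 0.723). The peroxisomal enzymes Acot3, Acot4 and Acot8 fell 4.00-fold, 4.05-fold and 2.30-fold in Akt/Nras tumours and 5.86-fold, 3.03-fold and 1.88-fold in Akt/Nras/Foxo1AAA tumours. Normal liver 2 was far above the other normal livers in Acot3 (8.69 FPKM against 2.10 to 3.06) and Acot4 (21.4 against 10.4 to 11.6). Without normal liver 2 Acot3 was 2.55-fold and 3.73-fold lower and Acot4 3.26-fold and 2.44-fold. With equal totals Acot3 in Akt/Nras tumours (log2 change -0.56, adjusted p = 0.103) and Acot8 in both groups (-0.21 and -0.19, adjusted p = 0.166 and 0.233) were not called. By the table's own coordinates Acot2, Acot1, Acot4 and Acot3 lie in that order on chromosome 12 with 15.6, 20 and 3.5 kb between neighbours. No build is stated for these coordinates, and they differ from the GRCm38.p6 positions used for promoter windows. The coding sequences of Acot1 and Acot2 are 95.5% identical over 1239 aligned bases and share 23.7% of 50-base windows, so reads of these 2 genes are uncertain in the same way as for Acaa1a and Acaa1b. The other pairs of the cluster are 74.5 to 84.3% identical.

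Summed over genes, the peroxisomal part of the pathway fell furthest. Its place below the 7 other genes rested on Acaa1b, and its place below the mitochondrial genes held without Acaa1b. The 20 mitochondrial genes together held 2850 to 2960 FPKM in normal liver, 1010 to 1050 FPKM in Akt/Nras tumours and 1140 to 1360 FPKM in Akt/Nras/Foxo1AAA tumours, so that the tumour means were 35.2% and 42.6% of normal. The 13 peroxisomal genes held 1500 to 1780, 282 to 316 and 356 to 545 FPKM, and the tumour means were 18.4% and 27.8% of normal. Without Acaa1b, the most abundant, the other 12 stood at 26.9% and 36.1% of normal, and the mitochondrial sum without Acaa2 at 37.8% and 44.9%. The 7 other genes stood at 26.3% and 32.7%, lower than the peroxisomal sum without Acaa1b. As a share of each library's FPKM total the 40 genes made up 0.699% ± 0.00402 in the 4 normal livers (SD), 0.398% ± 0.0205 in Akt/Nras tumours and 0.425% ± 0.0414 in Akt/Nras/Foxo1AAA tumours (SD, n = 3 each). Of that total the mitochondrial genes made up 0.263 to 0.301% in Akt/Nras and 0.276 to 0.306% in Akt/Nras/Foxo1AAA tumours, which overlapped. The peroxisomal genes made up 0.0774 to 0.0848% and 0.0861 to 0.123%. The sums are descriptions, with no test, and are led by the few most abundant genes.

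**Figure D3:**
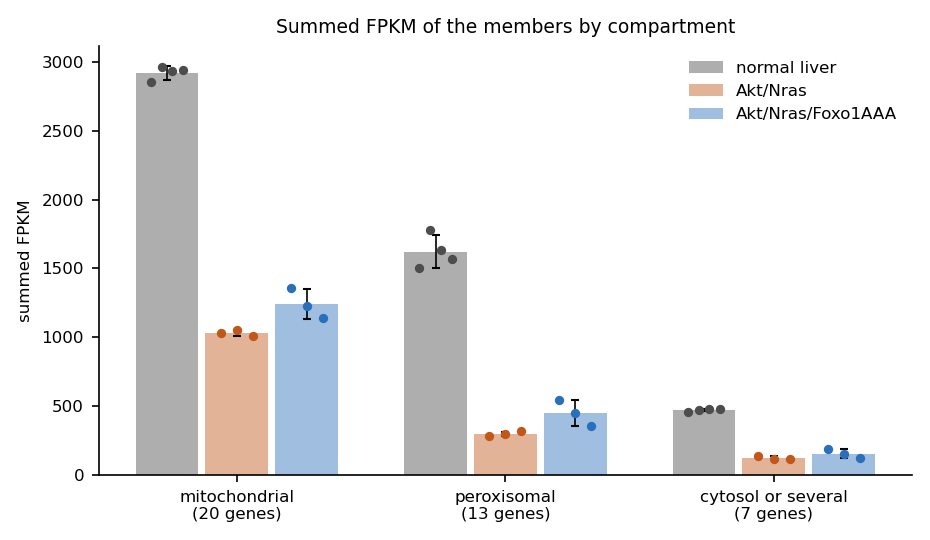
Summed FPKM of the 20 mitochondrial, 13 peroxisomal and 7 other genes: bars are group means with SD, starting at 0, and points are libraries. Both tumour groups lie far below normal liver, and every Akt/Nras/Foxo1AAA library lies above every Akt/Nras library in the mitochondrial and the peroxisomal sum. As shares of each library's FPKM total, which are not drawn, the mitochondrial sums of the tumour groups overlap.

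With Foxo1AAA added, part of the pathway stood higher than in Akt/Nras tumours. Of the 40 genes 15 were called higher and 1 lower in Akt/Nras/Foxo1AAA than in Akt/Nras tumours, where 7.93% of all tested genes were called higher and 4.13% lower. The 15 were Cpt1a, Cpt2, Acadm, Acaa2 and Decr1 of mitochondria, Acaa1a, Acaa1b, Hsd17b4, Pex11a, Decr2, Abcd2 and Abcd3 of peroxisomes, and Acsl1, Acad11 and Acot12. The 1 that was lower was Acot1. Every Akt/Nras/Foxo1AAA library lay above every Akt/Nras library in 19 of the 40, as in 16.4% of all tested genes. The median log2 difference was 0.32 over the 40, 0.23 over mitochondrial and 0.45 over peroxisomal genes, and -0.01 over all genes. With equal totals these medians were 0.08, -0.02, 0.22 and -0.21, and of the mitochondrial genes 0 were called higher and 1, Acadl, lower, so that the calls of Cpt1a, Cpt2, Acadm, Acaa2 and Decr1 were lost. Of the 15 genes 14 were still called lower than in normal liver, and Abcd2 was not. The mean of Akt/Nras/Foxo1AAA tumours lay between those of the other groups in 34 of the 40 genes, a pattern not counted over all tested genes.

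The largest differences were in Acaa1b, Acot12, Decr2 and Abcd2, and per-library values of the first 3 are given above. Acaa1b was 2.07-fold higher in Akt/Nras/Foxo1AAA tumours (log2 difference 1.0, SE 0.24, adjusted p = 0.0238). Acot12 was 2.06-fold higher (0.93, SE 0.16, adjusted p = 0.00898) and Decr2 1.82-fold higher (0.81, SE 0.12, adjusted p = 0.00576). Abcd2 stood at 3.03, 3.45, 1.79 and 4.03 FPKM in normal liver, at 2.20, 2.19 and 2.17 FPKM in Akt/Nras tumours and at 6.69, 4.30 and 3.28 FPKM in Akt/Nras/Foxo1AAA tumours. Its Akt/Nras libraries were nearly equal, its Akt/Nras/Foxo1AAA libraries all lay above them, and normal liver overlapped both. Abcd2 was 2.17-fold higher (0.81, SE 0.23, adjusted p = 0.0484). Acsl1 and Acad11 were each 1.73-fold higher (0.71, SE 0.15, adjusted p = 0.0147 and 0.0149), Pex11a 1.57-fold (0.62, adjusted p = 0.0318) and Acaa1a 1.56-fold (0.61, adjusted p = 0.0308). Cpt1a, at the entry of the pathway, was 1.5-fold higher (0.56, SE 0.12, adjusted p = 0.0202) and Cpt2 1.43-fold (0.50, adjusted p = 0.026). The remaining calls ranged from 0.31 for Acaa2 (adjusted p = 0.0458) to 0.49 for Hsd17b4 (adjusted p = 0.0424). Acot1 was 1.68-fold lower (-0.61, SE 0.13, adjusted p = 0.0151).

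Among the 24 genes not called between the tumour groups, the nearest to the threshold was Hadh (log2 difference 0.37, 95% interval 0.13 to 0.61, adjusted p = 0.054). The intervals of Hadha and Hadhb were among the narrowest and spanned 0, from -0.16 to 0.18 and from -0.10 to 0.26. Acadl was on the lower side (-0.14, interval -0.33 to 0.05), and was called lower with equal totals (-0.39). Acadvl (-0.08 to 0.54), Echs1 (-0.03 to 0.42), Acat1 (-0.10 to 0.42), Bdh1 (-0.01 to 0.76) and Ehhadh (0.05 to 0.86) had wider intervals that leave room for differences as large as those called. Acox2 (-0.14 to 0.55), Crot (-0.18 to 0.30) and Acot2 (-0.67 to 0.33) were not called in this comparison either.

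**Figure D4:**
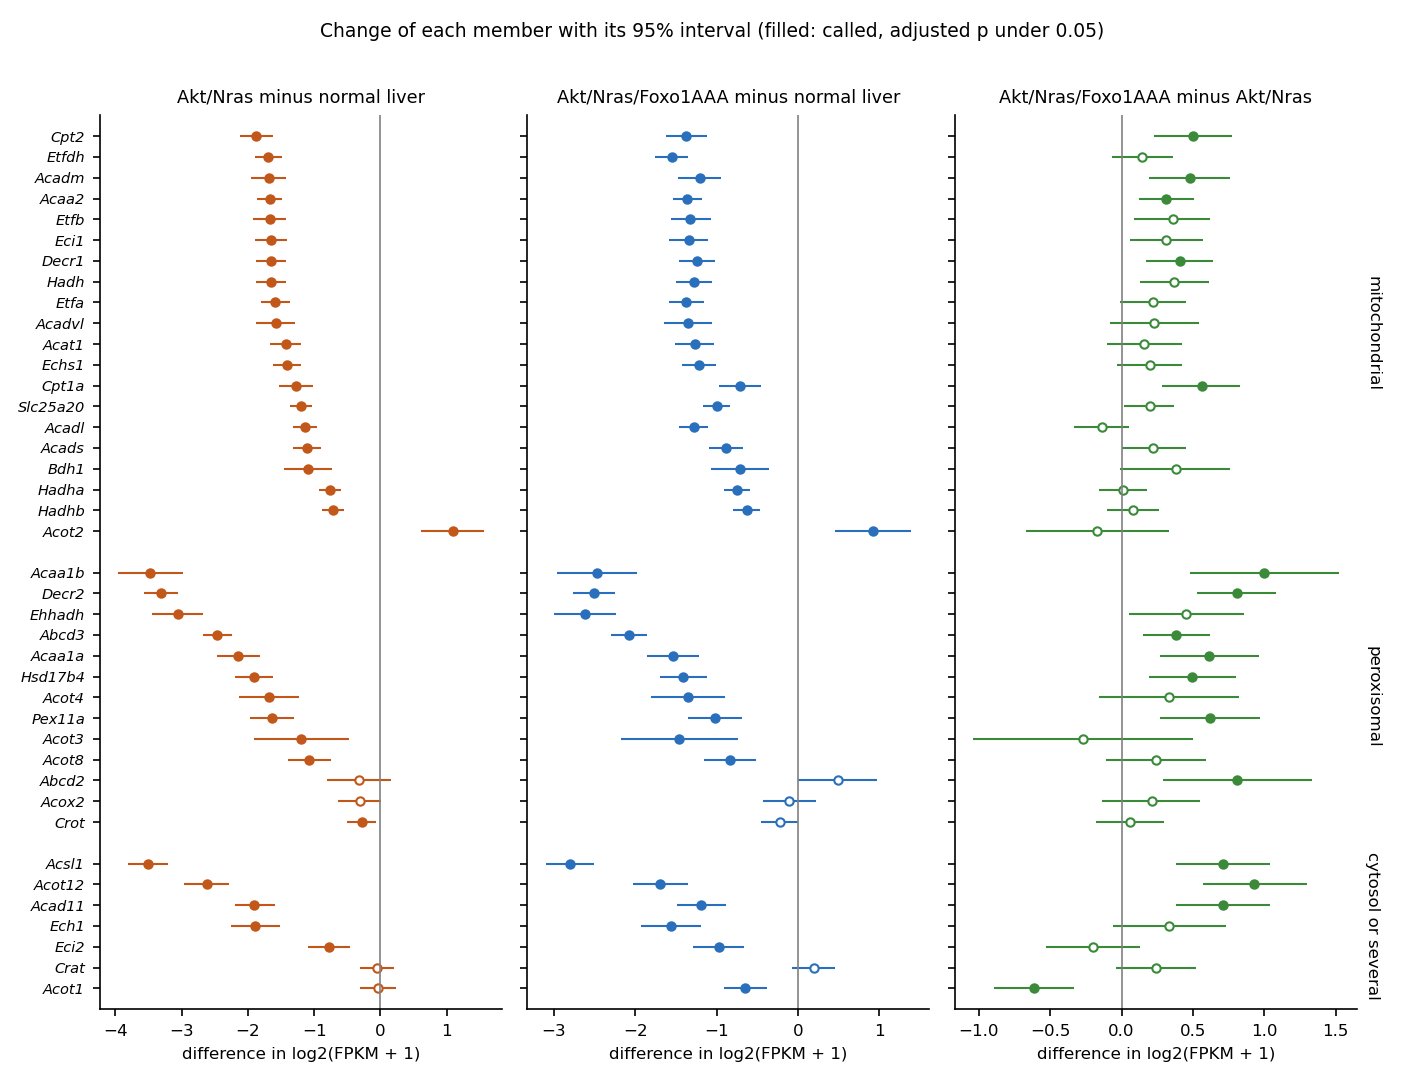
Difference in log2(FPKM + 1) of each gene with its 95% interval, for each tumour group against normal liver and for the tumour groups against each other; the axes differ in range, and filled points were called. In the 2 comparisons with normal liver nearly all intervals lie left of 0, and between the tumour groups 15 filled points lie right of 0 and 1, Acot1, left of it.

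The count of calls between tumour groups was less stable than those against normal liver. Higher calls were 25 with libraries weighted by their fit, where 16% of all genes were higher and 13.5% lower. They were 6 with equal totals, where 5.27% of all genes were higher and 26.0% lower, and 5 with no minimum, where 2.17% were higher. With the 6 tumour libraries alone 0 of the 40 passed in limma, while 5 of all genes passed as higher and 5 as lower, and 18 of the 40 were higher and 1 lower at an unadjusted p under 0.05, beside 13.8% and 11.2% of all tested genes. Replicate 1 of the Akt/Nras/Foxo1AAA tumours was the highest of its group in 34 of the 40 genes and replicate 3 the lowest in 30. Without Akt/Nras/Foxo1AAA replicate 1 the higher calls were 4 (Acsl1, Acad11, Acot12 and Decr2), and without replicate 3 they were 20, beside 3.23% and 10% of all genes. They were 5 without Akt/Nras/Foxo1AAA replicate 2 or Akt/Nras replicate 1, 9 without Akt/Nras replicate 2 or 3, and 7 without normal liver replicate 4, beside 3.63 to 6.66% of all genes. Decr2 and Acot12 passed in every alternative but the fit to tumour libraries alone (adjusted p = 0.0549 and 0.0649).

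Markers of other cells moved beside these genes. The 7 hepatocyte markers had a median difference from normal liver of -1.15, -0.97 and -1.04 in Akt/Nras libraries 1 to 3 and of -0.79, -0.63 and -0.89 in Akt/Nras/Foxo1AAA libraries 1 to 3 on the log2 scale. The 40 genes had -1.57, -1.59 and -1.53, and -1.08, -1.26 and -1.39. Between tumour groups 5 of the 7 hepatocyte markers were called higher with Foxo1AAA. Summed markers of cholangiocytes, the cells of bile ducts, were 10.6 to 12.1 FPKM in normal liver, 96.9 to 128 FPKM in Akt/Nras and 50.8 to 60.8 FPKM in Akt/Nras/Foxo1AAA tumours, with 4 of 5 tested markers lower in the second tumour group. Summed stellate cell and fibroblast markers were 16.7 to 18.7, 138 to 166 and 86.0 to 114 FPKM, with 3 of 8 lower. Of 7 macrophage and 5 endothelial markers 0 were called between the tumour groups by limma. Summed red blood cell markers were 1000 to 1770 FPKM in normal liver, 1000 to 2520 FPKM in Akt/Nras and 2040 to 3630 FPKM in Akt/Nras/Foxo1AAA tumours. Of these 4 markers 3 were higher in Akt/Nras/Foxo1AAA tumours than in normal liver and 1 than in Akt/Nras tumours (median 1.05). Lymphocyte markers summed to 0.473 to 2.64 FPKM and adipocyte markers to 0 to 1.87 FPKM over all libraries. The part of these cell types in the differences of the 40 genes was not tested.

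Nuclear receptor dimers that control fatty acid genes in liver bind 2 copies of AGGTCA in the same direction, spaced by 1 base, and FOXO proteins bind GTAAACA. Both were searched on both strands of RefSeq promoter windows (GRCm38.p6), from 250 bases before to 50 after the start, with up to 2 mismatches in the repeat and none in GTAAACA. Windows were found for 34 of the 40 genes, and not for Acaa2, Hsd17b4, Decr1, Acat1, Abcd2 and Crat. The repeat occurred in 6 of the 34 (17.6%) and in 1190 of 27025 genes with a window (4.40%). It occurred in 3 of 17 mitochondrial and 2 of 11 peroxisomal genes. GTAAACA occurred in 0 of the 34 and in 4.05% of all genes. The 6 matches are shown 5′ to 3′ because they are the sequences the count rests on; capitals mark bases equal to the repeat.
Acot12: AGGTgAgAGGTCA
Acot4: cGGcCAaAGGTCA
Acox2: AGGaCAgAGGTgA
Echs1: AGGTCAcgGGTCc
Etfa: AGGgCAaAGGTaA
Slc25a20: AGGTgAaAGGTCg

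The match in Acot12 has 1 mismatch and each other match 2. The 6 genes range from Acot12, one of the most lowered, to Acox2, which overlapped between all groups. Of 11 genes with a window that were called higher with Foxo1AAA than without, only Acot12 held the repeat (9.09%). The stretch of 250 bases before the Acot12 start, chr13:91741271-91741520 on the plus strand, is shown because it holds the closest match and Acot12 had the second largest difference between the tumour groups. The match lies on the other strand, so the capitals mark its reverse complement, from 110 to 98 bases before the start.
Acot12 upstream: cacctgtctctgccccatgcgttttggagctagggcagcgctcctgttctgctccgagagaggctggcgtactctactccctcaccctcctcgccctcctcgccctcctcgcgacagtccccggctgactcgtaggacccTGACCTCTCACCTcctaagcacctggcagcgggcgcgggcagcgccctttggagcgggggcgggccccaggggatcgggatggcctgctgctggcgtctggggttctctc

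Other genes of the pathway, from lists put together from textbook knowledge of their roles, fell for the most part too. Of 24 tested genes among 28 of mitochondrial fatty acid oxidation and ketone body use, 20 fell and 3 rose in Akt/Nras tumours, 19 fell and 3 rose in Akt/Nras/Foxo1AAA tumours, and between tumour groups 8 were higher and 1 lower. Their medians were -1.32, -1.18 and 0.34, and with equal totals 17 fell and 5 rose, 15 fell and 5 rose, and 6 were higher and 2 lower. Acsm1 and Acsm5, medium-chain acyl-CoA synthetases, led the decreases. Acsm1 stood at 323 ± 18.6 FPKM in the 4 normal livers (SD), 16.2 ± 6.57 FPKM in Akt/Nras tumours and 42.5 ± 17 FPKM in Akt/Nras/Foxo1AAA tumours (SD, n = 3 each), and Acsm5 at 46.7 ± 3.76, 2.28 ± 0.556 and 6.40 ± 2.22 FPKM. Acsm1 and Acsm5 were also the genes of this list that differed most between tumour groups, 2.63-fold and 2.81-fold higher with Foxo1AAA (adjusted p = 0.0211 and 0.00851). Acot9, a mitochondrial thioesterase, rose 13.4-fold and 11.6-fold from a level below 1 FPKM. It stood at 0.845 ± 0.155 FPKM in normal liver (SD, n = 4). The tumour groups held 11.3 ± 3.87 and 9.79 ± 1.41 FPKM (SD, n = 3 each), with log2 changes of 2.70 and 2.54. Oxct1, the transferase that lets tissues other than liver burn ketone bodies, rose from 1.42 ± 0.236 FPKM in the 4 normal livers (SD) to 7.63 ± 2.41 FPKM in Akt/Nras tumours and 2.93 ± 0.0867 FPKM in Akt/Nras/Foxo1AAA tumours (SD, n = 3 each). It was the gene of the list that was lower with Foxo1AAA (log2 difference -1.10, SE 0.17, adjusted p = 0.00554).

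Of 25 tested genes among 29 of other peroxisomal lipid metabolism 18 fell and 3 rose in each tumour group, and 15 were higher and 1 lower with Foxo1AAA than without. Their medians were -1.88, -1.08 and 0.55, and with equal totals 15 fell and 7 rose, 12 fell and 7 rose, and 13 were higher and 2 lower. Nudt7, which breaks down coenzyme A in peroxisomes, fell from 160 ± 12.6 FPKM (SD, n = 4) to 4.20 ± 1.03 and 12.9 ± 3.28 FPKM (SD, n = 3 each). Slc27a2, a very-long-chain acyl-CoA synthetase, fell from 487 ± 9.46 to 33.8 ± 12.2 and 93.4 ± 24.3 FPKM. Nudt7 and Slc27a2 were 3.08-fold and 2.76-fold higher with Foxo1AAA than without (adjusted p = 0.00398 and 0.00851). In Akt/Nras/Foxo1AAA tumours the second largest decrease in log2(FPKM + 1) was of Ephx2, the soluble epoxide hydrolase (-2.48). Acnat2, an acyltransferase, rose 5.38-fold and 7.95-fold, and Nudt19, a further coenzyme A hydrolase, 3.69-fold and 3.06-fold. Agps, an enzyme of ether lipid synthesis, was lower with Foxo1AAA (-0.48, SE 0.09, adjusted p = 0.011).

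All 15 peroxins tested, the proteins that build peroxisomes, fell in both tumour groups, with medians of -0.92 and -0.72, while with equal totals 8 fell and 2 rose in Akt/Nras tumours and 8 fell and 1 rose in Akt/Nras/Foxo1AAA tumours. The largest decreases were of Pex6 (log2 change -2.04 and -1.43) and Pex11g (-1.82) in Akt/Nras tumours and of Pex16 (-1.44) and Pex6 in Akt/Nras/Foxo1AAA tumours. Pex11g and the import receptor gene Pex5 were the 2 called higher with Foxo1AAA (0.41 and 0.40, adjusted p = 0.019 and 0.0372), and neither was called with equal totals (adjusted p = 0.0915 and 0.252).

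Most regulators of the pathway fell on the deposited scale, with medians of -0.89 and -0.83 against normal liver. Of 23 tested 19 fell and 3 rose in Akt/Nras tumours, 17 fell and 3 rose in Akt/Nras/Foxo1AAA tumours, and 4 were higher and 1 lower between tumour groups. With equal totals the first counts were 7 and 7, and the second 11 and 8. Acacb, the acetyl-CoA carboxylase whose product malonyl-CoA blocks the Cpt1a enzyme, fell 13.2-fold and 5.37-fold. Sirt3, a mitochondrial deacetylase, fell from 17.1 ± 1.43 FPKM (SD, n = 4) to 2.03 ± 0.236 and 3.36 ± 0.703 FPKM (SD, n = 3 each). Fgf21, a fasting hormone of liver that promotes fatty acid oxidation, rose. Its libraries stood at 0.440 to 3.94 FPKM in normal liver, at 15.5 to 26.4 FPKM in Akt/Nras tumours and at 33.9 to 46.7 FPKM in Akt/Nras/Foxo1AAA tumours, with no overlap of groups. Fgf21 changed by 2.94 and 3.89 on the log2 scale (SE 0.35 each, adjusted p = 2.73e-05 and 5.15e-06), and the difference between tumour groups, 0.96 (SE 0.38, adjusted p = 0.125), did not pass. Prkaa1, a catalytic subunit of AMP-activated kinase, rose 2.03-fold and 1.54-fold. Between tumour groups Acaca, the lipogenic acetyl-CoA carboxylase, was 2.15-fold higher with Foxo1AAA (adjusted p = 0.0226) and Creb3l3, a fasting-induced transcription factor, 1.5-fold (adjusted p = 0.0114, and 0.0554 with equal totals), whereas Sirt1, a nuclear deacetylase, was lower (-0.38, adjusted p = 0.0419).

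**Figure D5:**
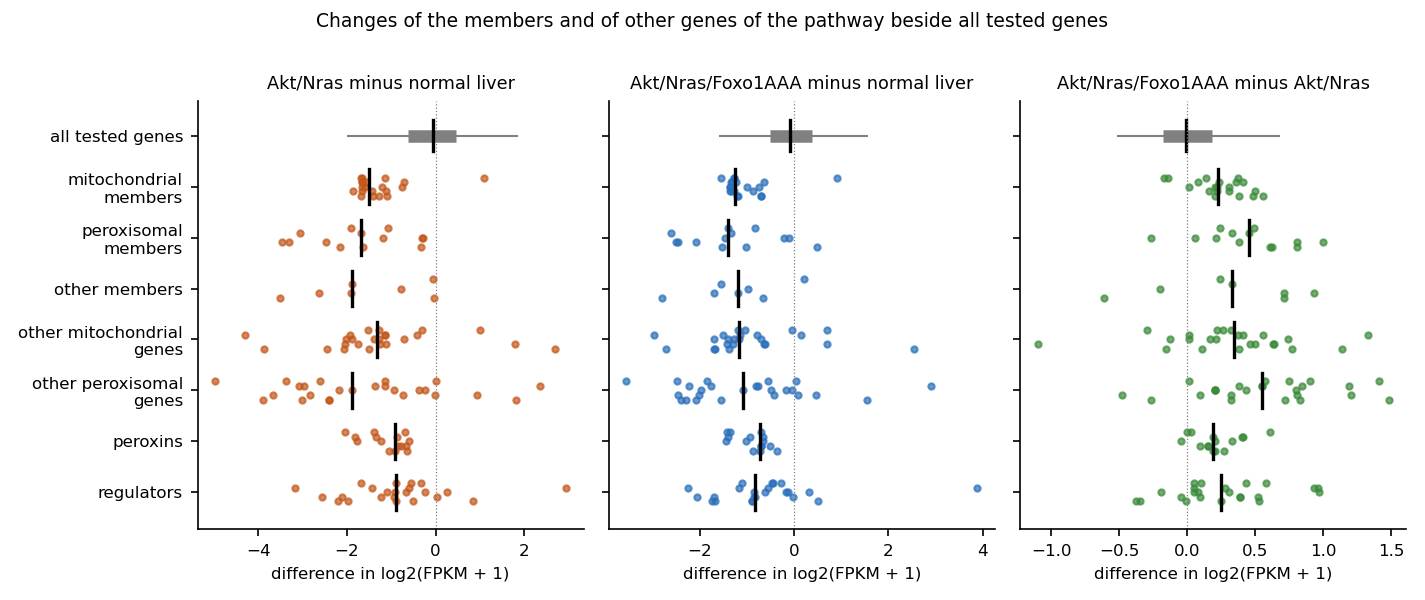
Difference in log2(FPKM + 1) of each gene (points) in the 3 compartments of the 40 and in 4 other lists, with the median of each as a black bar. For all 12439 tested genes the thick grey bar spans the 25th to 75th and the thin line the 5th to 95th percentile; in both comparisons with normal liver all 7 medians lie below that of all genes, and between the tumour groups all 7 lie above it.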

How the data were processed

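RNA of 10 libraries was extracted with the Quick-RNA Miniprep kit and made into libraries after polyA capture or rRNA removal, per the labels' protocols. The authors deposited FPKM values, 1 column per library, with a gene-model length for each gene, per the file headers. Per the submitters' processing notes the tools and builds listed are FastQC 0.11.7 and GRCm38, without their roles. Which aligner, counter and annotation were used, and by what factor FPKM was scaled in each library, is not given in the sources used here. Whole reads recovered from the FPKM steps (13.6 to 21.3 M a library) served to describe depth only; intervals cover the spread between libraries.

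The 40 genes and all gene and marker lists were chosen with earlier results of these data known. Groups follow the sample titles, and 0 value columns were without a sample. Genes with at least 1 FPKM in at least 3 libraries (12439) entered 1 limma fit (3.58.1, R 4.3.3) of log2(FPKM + 1) with a variance trend over all 10 libraries and 3 groups. Tests were two-sided, with Benjamini-Hochberg adjustment over all tested genes and a call at an adjusted p under 0.05; the script was tested on simulated data. Log2 values are differences on that scale, which understates changes of low genes; folds are ratios of mean FPKM. The 3 comparisons share libraries. Replicate numbers are not said to pair samples, and same-numbered libraries did not deviate together (r from -0.17 to 0.11). Every one of the 40 was named; values in every library were given for the 4 largest called decreases and increases of each comparison and the most abundant gene of each role, and other lists gave up to 2 genes each way. Genes named beyond that rule, such as Agps, Pex5, Creb3l3 and Sirt1, were chosen after their values were seen. Alternatives were other pseudocounts, minimums, scalings, library weights, no variance trend, a replicate block, the compared groups alone and each library left out. Promoter windows are RefSeq, GRCm38.p6. Identity of paralogs was computed on GENCODE M21 coding sequences. Summaries used Python 3.11.15 and pandas 2.3.3.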

Additional observations from a re-analysis of the deposited data

Results flagged for a closer look

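In normal liver 3 of the 40 genes had 1 library far from the other 3, judged by its gap to the nearest library as a share of the group's range (Dixon's test at the 95% level, which chance passes in about 1 in 20 groups). Normal liver 1 was lowest in Decr1, with a gap of 0.855 of the range. Normal liver 2 was highest in Acot3, with 0.855, and in its neighbour Acot4, with 0.894. Acot3 and Acot4 were called lower in both tumour groups without normal liver 2 as well.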

How the results depend on the processing

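Against normal liver, 34 to 37 of the 40 genes were called lower in all alternatives but equal totals (26 and 27). Higher calls were 7 in Akt/Nras tumours with equal totals. In Akt/Nras/Foxo1AAA tumours they were 5 with equal totals, 2 with median-of-ratios scaling, library weights or the replicate block, and from 1 to 2 on leaving out 1 library. Between tumour groups higher calls were 5 with no minimum, 6 with equal totals, 25 with library weights, 3 with the replicate block, 0 with the tumour libraries alone and 4 to 20 on leaving out 1 library. With the replicate block 2.67% of all tested genes were called higher, against 7.93% in the main fit. Lower calls, 1 as reported, were 2 with equal totals, 0 with the tumour libraries alone, and 0 to 1 on leaving out 1 library. With equal totals the sign turned in Akt/Nras tumours for Hadha 0.19, Hadhb 0.22, Acox2 0.64, Abcd2 0.38, Crot 0.67, Eci2 0.17, Crat 0.83 and Acot1 0.80, in Akt/Nras/Foxo1AAA tumours for Hadhb 0.06, Bdh1 0.01, Acox2 0.60 and Crot 0.48, and between tumour groups for Slc25a20 -0.04, Acadvl -0.01, Acads -0.02, Hadha -0.24, Hadhb -0.16, Echs1 -0.04, Acat1 -0.09, Etfa -0.03, Etfdh -0.09, Acox2 -0.04 and Crot -0.19. Other turns of sign lay near 0: in Akt/Nras tumours Crat 0.00 and Acot1 0.01 with median of ratios, Crat 0.04 and Acot1 0.06 without Akt/Nras 3 and Acot1 0.01 without normal liver 1; Acox2 0.00 in Akt/Nras/Foxo1AAA tumours without their replicate 2; and between tumour groups Hadha -0.01, -0.02 and -0.02 without Akt/Nras 2, Akt/Nras 3 and Akt/Nras/Foxo1AAA 1, Crot -0.06 without Akt/Nras 1 (-0.06 to 0.12 on leaving out 1 library), and Eci2 0.04 with library weights and 0.00 without Akt/Nras 1 (-0.34 to 0.00). Equal totals changes values by construction; the cause of the other changes was not tested. Replicate numbers are not said to pair the libraries, and why calls were lost under the block was not tested. The effect of depth was not tested.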
